A study of Mus musculus with 12 samples.

Results

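The genes described here encode the proteasome and the factors that assemble, activate or inhibit it, in the liver of mice with graded Nrf2 activity. They were all genes with a single symbol starting with Psma, Psmb, Psmc, Psmd, Psme, Psmf or Psmg, together with Pomp, and they numbered 46 of 5856 genes measured. By role, 14 were 20S core subunits (7 of the alpha ring and 7 constitutive ones of the beta ring), 3 were the immunoproteasome subunits Psmb8, Psmb9 and Psmb10, and 17 were 19S cap subunits (6 ATPases and 11 non-ATPases). The other 12 were 3 assembly chaperones of the 19S cap, 4 of the 20S core, 3 activators, the inhibitor Psmf1 and Psme3ip1, which the symbol rule takes in although it encodes no subunit. The activator subunit Psme2 was left out because its probe set lists Psme2b as well, and Psma8, Psmb11 and Psmg4 were not analysed here. The symbol alone chose these genes, but the table had been filtered: its probe sets exceed an intensity of 100 in the mean of 1 genotype or more.

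Male mice, 8 weeks of age, of 4 genotypes were compared, with 3 mice and 3 Affymetrix mouse genome arrays per genotype. Nrf2-null mice lack the transcription factor Nrf2 (gene Nfe2l2), and wild-type C57BL/6 mice were the controls. Keap1-KD mice have less Keap1, the protein that sends Nrf2 to degradation, in the whole body. Keap1-HKO mice came from Keap1-KD mice crossed with AlbCre+ mice, whose Cre is active in hepatocytes only, so that their other cells keep the lowered Keap1 of the Keap1-KD parent. Nrf2-null and Keap1-KD mice had been backcrossed to C57BL/6, and all mice had the same chow. Relative to wild-type mice, Nfe2l2 mRNA fell by 98.9% in Nrf2-null mice, and Keap1 mRNA fell by 77.6% in Keap1-KD mice and decreased by 95.6% when Keap1 was deleted in hepatocytes. Values are log2 intensities, made by gcRMA (background correction, quantile normalization and probe set summary), so that 1 unit is a doubling. A call here means an adjusted p below 0.05 by limma.

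The 20S core is a barrel of stacked rings, in which alpha subunits gate the entrance and beta subunits, among them the catalytic Psmb5, Psmb6 and Psmb7, cut proteins. The 19S cap recognizes ubiquitin-tagged proteins, and its ATPases unfold them and feed them into the core. Interferon induces Psmb8, Psmb9 and Psmb10, which replace the catalytic subunits and change which peptides are made for presentation to T cells. Subunit genes are known to be transcribed together under Nrf1 (Nfe2l1), a relative of Nrf2 that binds the same antioxidant response element, and Nrf2 has been linked to some of them in cells under oxidative stress.

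The core of the antioxidant response element, TGACNNNGC, was searched on both strands of the RefSeq promoters (build GRCm38.p6, 250 bases before to 50 after the start of a transcript). Of 39 proteasome genes with a promoter window, 6 held a match (15.4%). A match was held by 14% of all 27025 genes with a window, 17.5% of 4822 measured genes and 12.4% of all 32851 single windows. Psmb5, Psmb6 and Psmd9 held it on the sense strand, with the first base at −47, −9 and −31 from the start, and Psmc6, Psmd12 and Psme4 on the antisense strand at −227, −247 and −7. The matches are printed with the bases around them because Psmb5, the gene with the highest level relative to wild-type mice in Keap1-HKO mice, is among them; capitals mark the matched letters, and on the antisense strand these read GCNNNGTCA.
Psmb5 (chr14:54618022-54618054, minus strand): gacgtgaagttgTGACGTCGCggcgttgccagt
Psmb6 (chr11:70525336-70525368, plus strand): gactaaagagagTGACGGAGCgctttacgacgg
Psmd9 (chr5:123228147-123228179, plus strand): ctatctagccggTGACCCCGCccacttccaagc
Psmc6 (chr14:45329585-45329617, plus strand): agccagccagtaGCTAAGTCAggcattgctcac
Psmd12 (chr11:107479278-107479301, plus strand): tctGCTGTGTCAcatttgcccccc
Psme4 (chr11:30771756-30771788, plus strand): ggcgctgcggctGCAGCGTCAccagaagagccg
The 250 bases before the start are shown for the genes that passed a test, Psmb5 with its match in capitals and Psmd5, whose window held none. A match describes these letters only.
Psmb5 (chr14:54617996-54618245, minus strand): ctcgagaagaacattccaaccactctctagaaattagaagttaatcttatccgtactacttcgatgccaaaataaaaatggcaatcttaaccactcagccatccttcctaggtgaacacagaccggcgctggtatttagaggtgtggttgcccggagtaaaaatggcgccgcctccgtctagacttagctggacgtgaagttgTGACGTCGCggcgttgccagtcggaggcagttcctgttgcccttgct
Psmd5 (chr2:34870963-34871212, minus strand): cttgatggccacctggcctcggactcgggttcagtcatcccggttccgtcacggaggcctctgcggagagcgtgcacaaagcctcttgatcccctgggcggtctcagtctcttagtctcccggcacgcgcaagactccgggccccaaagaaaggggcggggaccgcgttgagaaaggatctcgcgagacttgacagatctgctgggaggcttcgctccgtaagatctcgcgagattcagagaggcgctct

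A pair of arrays stood apart, Keap1-HKO replicate 1 and Nrf2-null replicate 1. Their mean absolute difference from the other arrays of their genotype over all genes was 0.901 and 0.580. The remaining 10 arrays had 0.147 to 0.561, the highest being Keap1-HKO replicate 2. The lowest correlation with an array of the same genotype was 0.798, 0.798 and 0.844 for Keap1-HKO replicates 1, 2 and 3. It was 0.915 for Nrf2-null replicate 1, so that this measure did not set the pair apart. The log2 difference between 3′ and 5′ probe sets of Actb, a measure of RNA quality, was smaller on the pair than on the others. It was 2.03 and 2.36 against 2.51 to 2.91, so that 5′ signal was relatively higher, not lower, on the pair. For Gapdh it was 0.192 and 0.543, against 0.529 to 0.931, so that by this measure only Keap1-HKO replicate 1 was outside the range of the others. Transcripts of the exocrine pancreas were high on Keap1-HKO replicates 2 and 3 (median log2 intensities of 10 genes of 14.1 and 11.04, whereas the rest had 2.302 to 2.486). Skeletal muscle transcripts were high on both of these and on the second wild-type array (medians of 8 genes of 11.5, 9.85 and 11.2, against 2.38 to 3.04). The median of 8 hepatocyte genes lay between 15.4 and 15.9 on every array. The part of these arrays in the results was not tested beyond the values given without them. In values given without the pair that stood apart, Keap1-HKO mice were represented by replicates 2 and 3, both with pancreas and muscle transcripts. In whole liver, fewer cells of a type and less RNA per cell cannot be told apart. Within genotypes the median SD of proteasome genes was 0.163 for Nrf2-null, 0.108 for wild-type, 0.125 for Keap1-KD and 0.349 for Keap1-HKO mice.

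**Figure D1:**
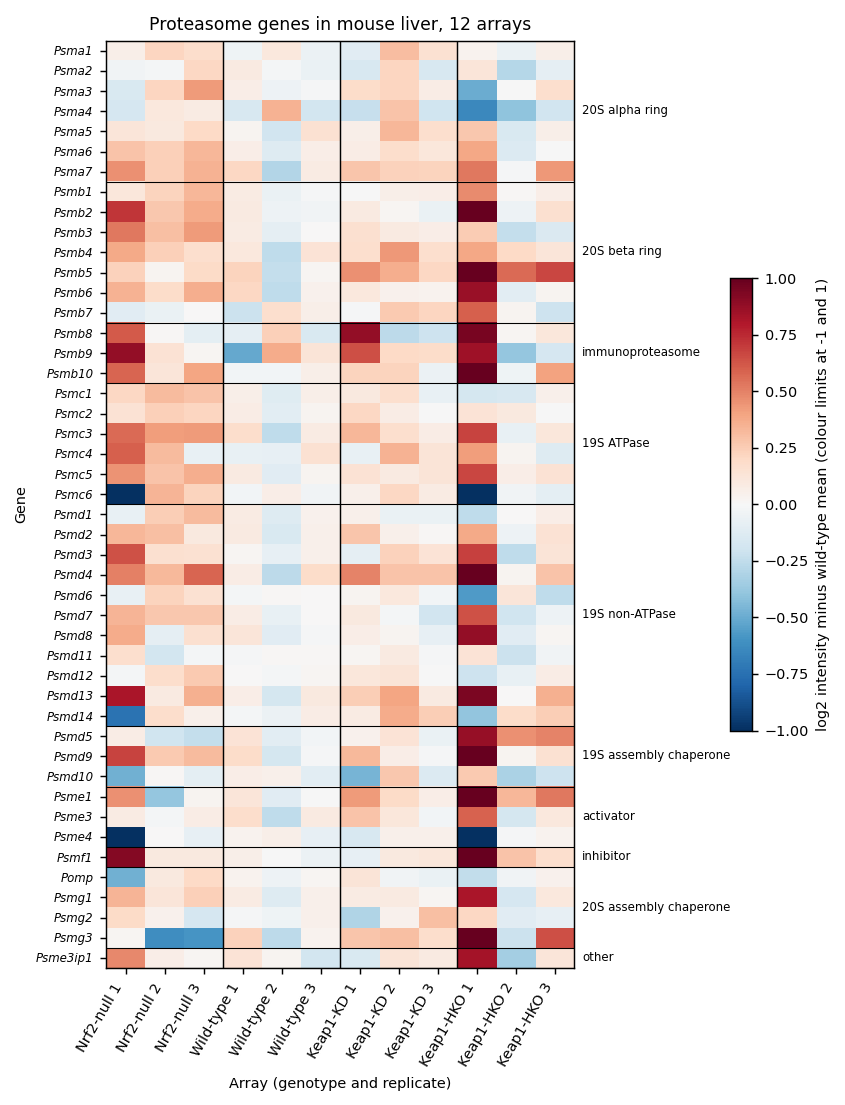
Level of each of 46 proteasome genes (rows, grouped by role) on each of 12 arrays (columns), as log2 intensity minus the mean of the 3 wild-type arrays, red above and blue below, with colours ending at −1 and 1. Keap1-HKO replicate 1 is the most coloured column, Psmc6 and Psme4 are blue there and on Nrf2-null replicate 1, and Psmb5, Psmd5 and Psme1 are red on all 3 Keap1-HKO arrays.

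Proteasome genes differed little between genotypes. In Keap1-HKO mice 1 of 46 genes passed the test, Psmb5, against 3.94% of all genes. No proteasome gene passed in Nrf2-null mice, where 0.41% of all genes did, in Keap1-KD mice, where 0.0683% did, or in Keap1-HKO mice compared with Keap1-KD mice, where 1.43% did. A linear trend from Nrf2-null through wild-type and Keap1-KD to Keap1-HKO mice, given as log2 per step, was called for 2 genes, Psmb5 and Psmd5, both rising, while 9.2% of all genes passed. At an unadjusted p under 0.05, 4 proteasome genes were higher in Nrf2-null mice (3.3% of all genes were), 0 in Keap1-KD mice (1.42%) and 3 in Keap1-HKO mice (9.26%). At that p 0 proteasome genes were lower in each, where 212, 66 and 550 of all 5856 genes were. Keap1-HKO mice had 2 higher than Keap1-KD mice had (6.75%). By Duncan's multiple range test, the test of the study's methods, 2 genes were higher in Nrf2-null mice (5.4% of all genes passed in either direction), 0 in Keap1-KD mice (2.25%) and 2 in Keap1-HKO mice (12%). Between Keap1-HKO and Keap1-KD mice it called 2 (9.61%). The 95% interval of a log2 difference reached a median of 0.44 to either side.

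Psmb5, the beta5 subunit with the chymotrypsin-like activity of the core, was the gene called in Keap1-HKO mice. Its level was 11.83, 11.63 and 11.79 in the 3 Nrf2-null mice, 11.82, 11.36 and 11.62 in wild-type, 12.06, 11.96 and 11.81 in Keap1-KD and 12.88, 12.17 and 12.27 in Keap1-HKO mice. All 3 Keap1-HKO arrays lay above the other 9 arrays, while Keap1-KD, wild-type and Nrf2-null arrays overlapped. The mRNA of Psmb5 was 82.0% ± 29.3 (SEM, n = 3) above wild-type in Keap1-HKO mice, a log2 difference of 0.84 with a 95% interval of 0.41 to 1.28 (limma, adjusted p = 0.041). In Keap1-KD mice it was 26.1% ± 6.30 (SEM, n = 3) higher, which did not pass (log2 difference 0.34, interval −0.09 to 0.78). In Nrf2-null mice the log2 difference was 0.15, with an interval of −0.28 to 0.59. Keap1-HKO mice differed from Keap1-KD mice by 0.50 (interval 0.06 to 0.93, adjusted p = 0.31). The trend was 0.24 per step (limma, adjusted p = 0.037), and its call was lost in 11 of 23 alternatives, with adjusted p up to 0.114. Relative to the wild-type mean, Psmb5 ranked highest of the 46 genes on Keap1-HKO replicates 2 and 3, at 0.57 and 0.67, and the third on replicate 1, at 1.28. With both deviating arrays left out the difference in Keap1-HKO mice was 0.62 (adjusted p = 0.025). It was above 0 in all 25 alternatives, from 0.59 to 1.16, but the call was lost in 13 of them, with adjusted p from 0.0109 to 0.258.

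**Figure D2:**
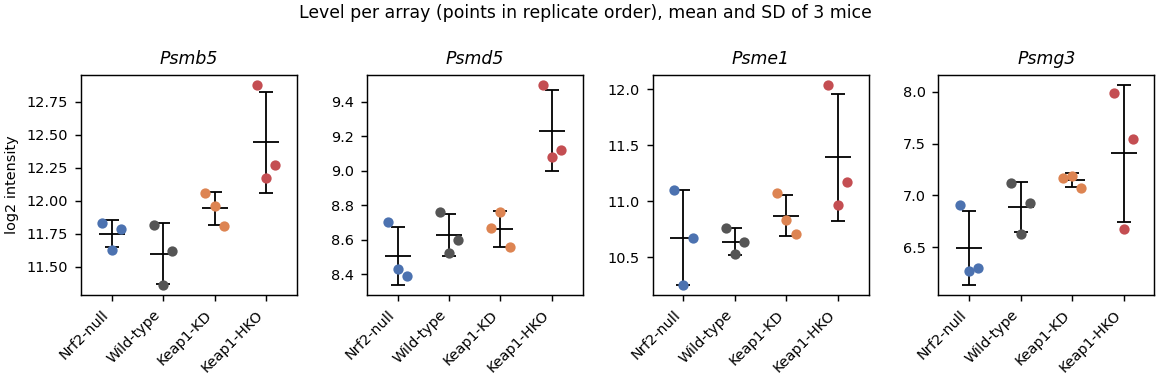
Log2 intensity of Psmb5, Psmd5, Psme1 and Psmg3 in the 4 genotypes, with 1 point per mouse in replicate order and the mean and SD of 3 mice in black; each panel has its own axis, which does not start at 0. Keap1-HKO replicate 1 is the highest point in all panels, and in Psmb5 and Psmd5 every Keap1-HKO mouse lies above all other mice.

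Psmd5 encodes a chaperone of 19S assembly that binds the ATPase Psmc2 and is released from the finished cap. Its level was 8.70, 8.43 and 8.39 in Nrf2-null, 8.76, 8.52 and 8.60 in wild-type, 8.67, 8.76 and 8.56 in Keap1-KD and 9.50, 9.08 and 9.12 in Keap1-HKO mice. As with Psmb5, the 3 Keap1-HKO arrays stood above all others, and the other genotypes overlapped. The trend of 0.22 per step passed (interval 0.12 to 0.33, adjusted p = 0.017), and it was called in 21 of 23 alternatives, though not without Nrf2-null replicate 2 or 3. Against wild-type mice alone its mRNA was 53.2% ± 15.0 (SEM, n = 3) higher in Keap1-HKO mice, which missed the threshold (log2 difference 0.61, interval 0.27 to 0.94, adjusted p = 0.058). Against Keap1-KD mice the log2 difference was 0.57 (interval 0.23 to 0.91, adjusted p = 0.123). Without the arrays that stood apart both comparisons were called, at 0.47 (adjusted p = 0.022; 4.71% of all genes were then higher and 6.75% lower) and 0.44 (adjusted p = 0.045; 2.61% and 3.12%). In Keap1-KD mice Psmd5 was within 0.04 of wild-type mice, so that the difference over the 4 genotypes lay mainly in the Keap1-HKO mice. The other 19S chaperones, Psmd9 and Psmd10, were at 0.41 and −0.09 in Keap1-HKO mice and did not pass.

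The activator subunit Psme1 (PA28 alpha), which joins Psme2 in a ring that opens the core without ubiquitin, had 12.04, 10.97 and 11.17 in Keap1-HKO mice, against 10.76, 10.53 and 10.64 in wild-type, 11.07, 10.83 and 10.71 in Keap1-KD and 11.10, 10.25 and 10.67 in Nrf2-null mice. All Keap1-HKO arrays were above the wild-type arrays, but they overlapped with the Keap1-KD and Nrf2-null ones. The log2 difference from wild-type mice was 0.75 (interval 0.12 to 1.38), and it did not pass (adjusted p = 0.193). It was 0.43 without the arrays that stood apart (adjusted p = 0.114). Psmg3, which helps to assemble the alpha ring, was at 6.91, 6.27 and 6.30 in Nrf2-null, 7.12, 6.63 and 6.93 in wild-type, 7.17, 7.19 and 7.07 in Keap1-KD and 7.99, 6.68 and 7.54 in Keap1-HKO mice. Keap1-HKO replicate 2 lay below 2 of the wild-type arrays, and the trend of 0.30 per step did not pass (adjusted p = 0.088). Without the arrays that stood apart, the trends of Psme1 and Psmg3 passed as well as those of Psmb5 and Psmd5, and those of Psmb3 and Psmd7 passed in the opposite direction, while 8.74% of all genes rose and 12% fell. Psmf1, the PI31 inhibitor of the core, was 0.59 above wild-type mice in Keap1-HKO mice with an interval of −0.09 to 1.27, and 0.22 without the same arrays.

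Constitutive 20S subunits other than Psmb5 stayed within 0.42 of wild-type mice in Keap1-HKO mice. The median log2 difference of the 7 alpha subunits was 0.01 there (range −0.41 to 0.32), and that of the 7 beta subunits 0.23 (range −0.04 to 0.84). Psmb6 and Psmb7, the other catalytic subunits, had log2 differences of 0.26 and 0.14. Psmb6 was at 12.88, 11.91 and 12.04 in Keap1-HKO mice and 12.22, 11.76 and 12.06 in wild-type mice, so that only replicate 1 lay above all wild-type arrays and the groups overlapped. Psma4 had 10.19, 10.43 and 10.64 in Keap1-HKO mice, just below the wild-type values of 10.67, 11.18 and 10.65, and did not pass. Pomp, which completes the assembly of a new core, had 11.17, 11.38 and 11.46 in Keap1-HKO mice, among wild-type values of 11.45, 11.36 and 11.43. The log2 difference of Pomp was −0.08 (interval −0.47 to 0.32) there, 0.01 in Keap1-KD and −0.06 in Nrf2-null mice. The core chaperones Psmg1 and Psmg2 were at 0.25 and 0.01 in Keap1-HKO mice.

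Among 19S cap subunits none passed in any comparison or in the trend. In Keap1-HKO mice the median log2 difference of the 17 subunits was 0.11 and 11 were above 0; in Keap1-KD mice it was 0.09, with 15 above 0. The highest in Keap1-HKO mice was Psmd4, a ubiquitin receptor of the cap, at 0.45 (interval −0.08 to 0.98), and its levels of 11.16, 10.14 and 10.40 there overlapped with wild-type levels of 10.19, 9.85 and 10.30. The lowest was the ATPase Psmc6, at −0.90 (interval −2.42 to 0.63).

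Psmc6 and Psme4, the activator PA200, were far lower on the pair of arrays that stood apart than on all others. Psmc6 was at 8.36 on Nrf2-null replicate 1 and 7.59 on Keap1-HKO replicate 1, and between 10.06 and 10.50 on the other 10 arrays. Psme4 was at 9.76 and 9.19, against 11.08 to 11.30. All 3 probe sets of each gene were low on both arrays, the dimmest of Psmc6 at 3.10 and 4.39, against 6.70 to 8.03 elsewhere. The deubiquitinase Psmd14 was also lowest there, at 9.51 and 9.85 against 10.19 to 10.62. Uba3, a subunit of the enzyme that activates Nedd8, and Uchl5, a deubiquitinase of the cap, were low on the same arrays (7.30 and 6.95 against 8.97 to 9.51, and 6.59 and 5.55 against 7.88 to 8.36). Since other genes were highest on Keap1-HKO replicate 1 (25 of 46, with 8 at their lowest), the low and high values came from the same mouse. Without both arrays the log2 difference of Psmc6 was −0.06 in Keap1-HKO and 0.29 in Nrf2-null mice, that of Psme4 0.01 and −0.04, and neither passed before or after.

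**Figure D3:**
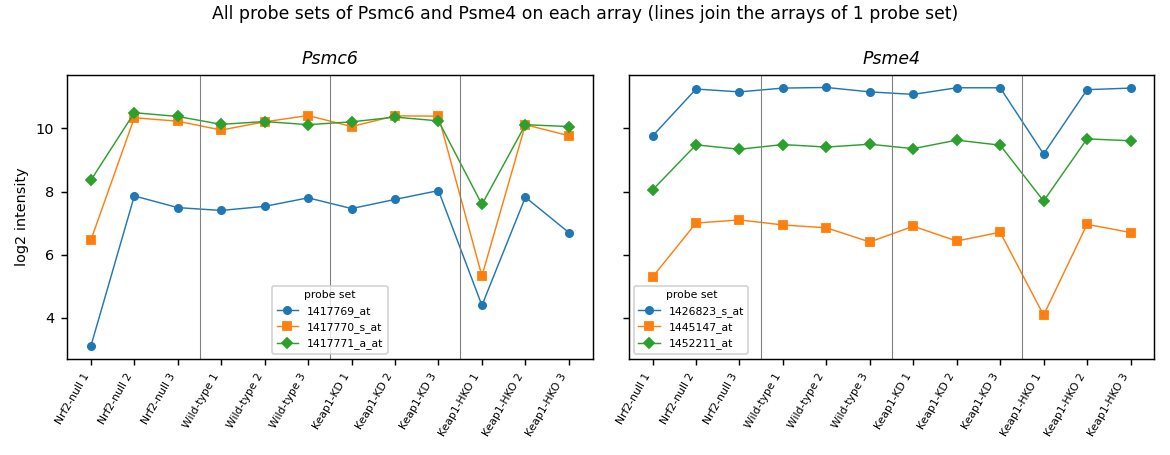
Log2 intensity of the 3 probe sets of Psmc6 (left) and of Psme4 (right) on each of 12 arrays, with lines that join the arrays of 1 probe set and vertical lines between genotypes. All 6 probe sets dip on Nrf2-null replicate 1 and on Keap1-HKO replicate 1.

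The 3 interferon-inducible subunits did not pass in any genotype. Psmb8 was at 8.74, 8.14 and 8.03 in Nrf2-null, 8.04, 8.37 and 7.98 in wild-type, 9.01, 7.87 and 7.92 in Keap1-KD and 9.08, 8.15 and 8.24 in Keap1-HKO mice. Its highest values were those of replicate 1 in each genotype but wild-type, and all groups overlapped. Psmb9 was at 8.39, 7.65 and 7.53, at 7.00, 7.88 and 7.64, at 8.15, 7.71 and 7.69, and at 8.36, 7.12 and 7.34 in the same order of genotypes. Replicate 1 was again the highest in each genotype but wild-type, where it was the lowest. Psmb10 was at 8.57, 8.11 and 8.38, at 7.96, 7.96 and 8.05, at 8.21, 8.21 and 7.93, and at 9.02, 7.95 and 8.39. Its Nrf2-null values were all above those of wild-type mice, and the Keap1-KD and Keap1-HKO values overlapped with wild-type ones. In Keap1-HKO mice the log2 differences were 0.36 (interval −0.42 to 1.14), 0.10 (−0.71 to 0.90) and 0.46 (−0.06 to 0.99) for Psmb8, Psmb9 and Psmb10. Without the arrays that stood apart they were 0.07, −0.28 and 0.18. Of 12 measured genes of interferon response and class I presentation none passed either, and their median log2 difference was −0.46 in Keap1-HKO mice. There 3 of the 12 were above 0: Irf1, Tapbp and Igtp. Irf1 was at 7.63, 7.25 and 6.96 in Keap1-HKO mice, against 6.35, 6.46 and 6.74 in wild-type mice. Tapbp was at 10.89, 10.32 and 10.28, against 10.20, 9.85 and 10.04. H2-K1, a class I heavy chain, and Irgm1, an interferon-induced GTPase, had the lowest p, at −0.48 and −0.46 (adjusted p = 0.0886 and 0.0993). Without the arrays that stood apart 5 of the 12 were called lower in Keap1-HKO mice: Tap1, H2-K1, H2-D1, Irf9 and Iigp1. In that fit 6.75% of all genes were called lower, and both Keap1-HKO arrays left held pancreas and muscle transcripts. Immune cells also express these subunits. The median level of 9 Kupffer cell and macrophage genes was 8.68 to 8.89 on Keap1-HKO arrays, within the range of 8.67 to 9.70 on the other arrays. It was below all wild-type arrays, which had 8.92, 9.70 and 9.18. Against wild-type mice 1 of these 9 genes was above 0 in Keap1-HKO mice and 0 in Keap1-KD mice, and none was called. The median of 4 pan-leukocyte genes was 8.53 on Nrf2-null replicate 1 and 8.25 on Keap1-HKO replicate 1, against 7.59 to 8.05. The part of leukocytes in the levels of Psmb8, Psmb9 and Psmb10 was not tested. No T or NK cell gene of 13 listed was among the genes analysed here, and of the 7 listed B cell genes only Ighm was.

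**Figure D4:**
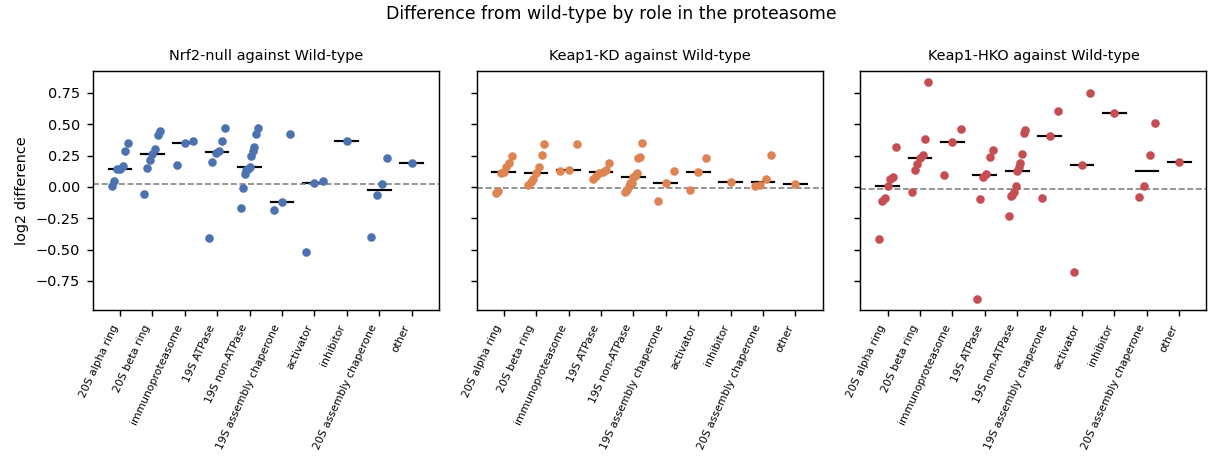
Log2 difference from wild-type mice of each proteasome gene (points) in Nrf2-null (left), Keap1-KD (middle) and Keap1-HKO mice (right), by role, with the median of a role as a black line and the median of all genes as a dashed line. In Keap1-KD mice all points lie within 0.36 of 0, and the widest range, from −0.90 (Psmc6) to 0.84 (Psmb5), is in Keap1-HKO mice.

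Small differences of many genes had 1 direction. The median log2 difference of the 46 genes was 0.18 in mice without Nrf2, 0.11 with Keap1 lowered and 0.15 with Keap1 deleted in hepatocytes, against 0.02, −0.01 and −0.01 over all genes. Of the 46, 37 were above 0 in Nrf2-null mice (80.4%), 40 in Keap1-KD mice (87.0%) and 33 in Keap1-HKO mice (71.7%), against 52.7%, 47.3% and 48.8% of all genes. The 3 comparisons share the wild-type arrays, and Wild-type replicate 2, which held muscle transcripts, was the lowest of the 12 arrays for 15 of the genes. Subunits of 1 complex are not independent of each other, and no test of the list was made.

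In Nrf2-null mice 18 of 46 genes (39.1%) had all 3 arrays above all 3 wild-type arrays, where 12.1% of all genes did, and 0 had all 3 below, where 8.76% did. They were 2 alpha subunits (Psma6, Psma7), 4 beta subunits (Psmb1, Psmb2, Psmb3, Psmb4), 4 ATPases (Psmc1, Psmc2, Psmc3, Psmc5), 4 non-ATPases (Psmd2, Psmd3, Psmd4, Psmd7) and Psmb10, Psmd9, Psmf1 and Psmg1. The share was 25 of 46 without Nrf2-null replicate 1 (18.8% of all genes) and 19 of 46 without Wild-type replicate 2 (14.9% of all genes). Psmb3, a beta subunit without catalytic activity, had the lowest p, with 12.65, 12.43 and 12.55 in Nrf2-null mice and 12.21, 12.04 and 12.13 in wild-type mice. It was 33.6% ± 5.68 (SEM, n = 3) higher, a log2 difference of 0.42 (interval 0.10 to 0.74), which Duncan's test called and limma did not (adjusted p = 0.537). The ATPases Psmc1, Psmc3 and Psmc5 were at 0.27, 0.47 and 0.37, each with an unadjusted p under 0.05, and Duncan's test called Psmc1 alone of them. With array quality weights, which limma estimates so as to count deviating arrays less, 18 genes (39.1%) were called higher and 2 (Psmd5, Psmg3) lower in Nrf2-null mice, where 11.7% of all genes were called higher and 11.9% lower. The estimation of these weights did not converge fully.

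In Keap1-KD mice 7 of 46 genes (15.2%) had all arrays above wild-type arrays (Psma3, Psma6, Psma7, Psmb4, Psmc5, Psmd4, Psmd14), against 7.02% of all genes, and 0 had them below, against 8.21%. All differences were small, from −0.11 to 0.35. In Keap1-HKO mice the genes with all arrays above were 4 (8.70%; Psmb5, Psmd5, Psme1, Psmf1), against 12.7% of all genes, and those below were 2 (Psma4, Psmc6), against 14.9%. Without the arrays that stood apart, the median of the 46 genes was 0.003 in Keap1-HKO mice, with 24 of 46 above 0, and it stayed at 0.19 in Nrf2-null mice. The median shift of the whole list in Keap1-HKO mice was thus present with replicate 1 and not without it. Psmb5 and Psmd5 were called higher without it and Nrf2-null replicate 1 (4.35% of the 46 genes, against 4.71% of all genes). Without Keap1-HKO replicate 1 alone, only Psmb5 was called. The Keap1-HKO arrays left in both fits were replicates 2 and 3, which held pancreas and muscle transcripts.

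**Figure D5:**
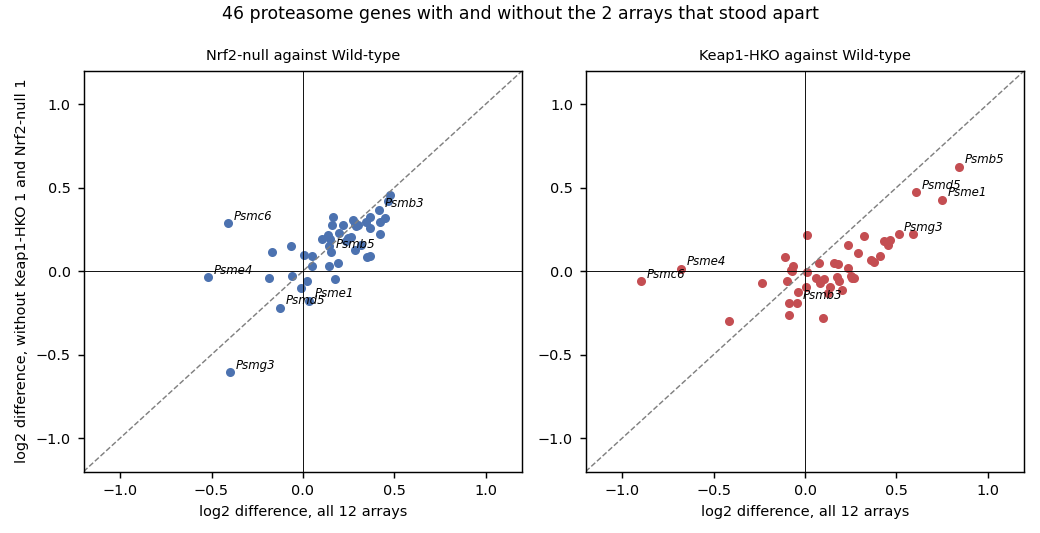
Log2 difference from wild-type mice of 46 proteasome genes with all 12 arrays (horizontal axis) and with replicate 1 of Keap1-HKO and of Nrf2-null mice left out (vertical axis), in Nrf2-null (left) and Keap1-HKO mice (right), with the line of equal values dashed. In Keap1-HKO mice most points move toward 0, Psmc6 from −0.90 to −0.06, Psmb5 from 0.84 to 0.62 and Psmd5 from 0.61 to 0.47.

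Other genes of the pathway were given by lists. Of 15 measured Nrf2 targets, 13 were called higher in Keap1-HKO mice, against 2.1% of all genes. All 15 were above 0 there, with a median log2 difference of 2.83. In Keap1-KD mice 3 were called higher (0.0512% of all genes were), and all 15 were above 0, with a median of 0.87. In Nrf2-null mice 3 were called lower (0.359% of all genes were), and 2 were above 0, with a median of −0.68. Nqo1, a quinone reductase and a standard mark of Nrf2 activity, was 5.28 above wild-type mice in Keap1-HKO mice (adjusted p = 2.61e-06) and 2.09 above in Keap1-KD mice (adjusted p = 0.037), far more than any proteasome gene. Of 4 measured genes of the Nrf1 route none passed in any genotype. Nfe2l1 itself was at 6.74, 6.93 and 6.90 in Keap1-HKO mice and 6.29, 6.60 and 6.29 in wild-type mice, all higher. Its log2 difference was 0.46 (adjusted p = 0.079), and 0.52 without the arrays that stood apart (adjusted p = 0.018). On every array of the other genotypes Nfe2l1 was below 6.64, the log2 of the intensity threshold for keeping a probe set. Its probe set was thus kept only through its mean in Keap1-HKO mice. The filter favoured a higher level there, and the difference cannot be read apart from it. Mafg, a small Maf partner of Nrf1 and Nrf2, was at 0.50 (adjusted p = 0.238). Nfe2l2 mRNA was lower in Keap1-HKO mice by the same test (log2 difference −0.70, adjusted p = 0.048). Of 10 measured shuttle factors and p97 genes none passed, and 9 were above 0 in Keap1-HKO mice. Sqstm1 (p62), a carrier of ubiquitin-tagged cargo, was at 0.60 (adjusted p = 0.204) and Ubqln4, a shuttle to the proteasome, at 0.46 (adjusted p = 0.242). Ubqln2, of the same family, was at 0.44 (adjusted p = 0.272), and was called at 0.65 without the arrays that stood apart (adjusted p = 0.027). Of 8 measured genes of proteins bound to the proteasome but outside the symbol rule none passed, with a median of −0.12 in Keap1-HKO mice. The small cap subunit Sem1 was at −0.41 (adjusted p = 0.219) and the thioredoxin-like Txnl1 at −0.29 (adjusted p = 0.294). Of 8 listed ubiquitin and E1 genes only Uba3 was measured, and it did not pass.

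Several probe sets were present for 15 of the 46 genes, 34 in all. They had the same sign in 13 of the 15 genes in Nrf2-null mice (not in Psmd11 and Psmf1), in 13 in Keap1-KD mice (not in Psmd11 and Psme4) and in 12 in Keap1-HKO mice (not in Psmb3, Psmd11 and Psmg2). Psmb5, Psmd5, Psme1 and Psmg3 rested on 1 probe set each.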

How the data were processed

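Total RNA of mouse liver (4 genotypes, 3 mice each) had been hybridized to 12 Affymetrix arrays. The deposited values are log2 intensities from gcRMA, which the authors ran in R; probe sets whose intensity stayed at or under 100 in every group had been dropped. Scanner files were not used. Of 9622 probe sets, 8554 with 1 gene symbol were kept (371 had several), and each of 5856 genes took its probe set with the highest mean over all arrays. Symbols came from the platform annotation.

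Genes were tested by limma 3.58.1 (lmFit, eBayes) in R 4.3.3 in 1 fit over 4 genotypes (8 residual and 2.19 prior degrees of freedom). P-values were adjusted by Benjamini and Hochberg over 5856 genes, with a threshold of 0.05. Trend weights were equal steps over the ordered genotypes. Percent changes are of mean un-logged intensities, with the SEM of that genotype's mice only. A fold change is on the log2 scale unless given in percent. The script was tested on simulated data. Duncan's test, other probe sets, filters, normalizations, weights, arrays left out and a replicate block were alternatives; the block was used since labels number the replicates 1 to 3, although no source says what a number stands for. Deviations of same-numbered arrays correlated above 0.1 in 15 of 18 pairs, among them all 3 pairs of Keap1-HKO with Keap1-KD mice (0.105 to 0.215), of Nrf2-null with Keap1-HKO mice (0.685 to 0.787) and of Nrf2-null with Keap1-KD mice (0.149 to 0.290), but not all pairs with wild-type mice. The number of arrays limits the precision.

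Named were all proteasome genes, Nfe2l2, Keap1, and of the other lists the called genes used as examples or, where none was called, up to 2 with the lowest p. Uchl5, Ubqln2, Tap1, H2-D1, Irf9, Iigp1, Irf1, Tapbp, Igtp, Cbr3 and Abcc4 were named after their values were seen. The genes and lists were chosen with earlier results of these data known. Counts of non-overlapping arrays under alternatives were added after seeing the data.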

Additional observations from a re-analysis of the deposited data

How the results depend on the processing

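No value changed from a called direction to its opposite under any alternative run. Counts of proteasome genes called in Keap1-HKO against wild-type mice (1 with all settings as described) were 2 with the probe set of lowest SD, above an intensity of 200, with Duncan's test and with the 2 deviating arrays (replicate 1 of Keap1-HKO and of Nrf2-null mice) left out. All were higher, at 4.35%, 4.88%, 4.35% and 4.35% of proteasome genes, against 2.63%, 2.41%, 5.7% and 4.71% of all genes. The counts were 0 after centring on the array median, with array quality weights and in a fit of these 2 groups only. Of all genes 1.98%, 2.34% and 0.564% were then called higher. Leaving out single arrays gave 0 to 1, with Psmb5 lost on leaving out any Nrf2-null, wild-type or Keap1-KD array or Keap1-HKO replicate 3, and kept without Keap1-HKO replicate 1 or 2. Psmd5 was called in place of Psmb5 without Nrf2-null replicate 1. With single arrays left out, 0.939% to 2.39% of all genes were called higher. The median log2 difference there ranged from 0.0027 (without Keap1-HKO replicate 1) to 0.27 (without replicate 2), was 0.0027 without both arrays and was −0.050 with array weights. Against Keap1-KD mice the median was −0.090 to 0.14 with single arrays left out (lowest without Keap1-HKO replicate 1, highest without replicate 2), −0.090 without both arrays and −0.13 with array weights. There Duncan's test called 2 genes higher (4.35%, against 4.71% of all genes) and the fit without the pair 1 (2.17%, against 2.61%). The trend had 1 gene higher after centring (4.32% of all genes were), and 1 higher and 1 lower with array weights (6.92% and 8.9%). It had 4 higher and 2 lower without the pair (8.74% and 12%). Over single arrays left out the trend had 0 to 3 higher and 0 to 2 lower, with 0 higher without Nrf2-null replicate 2 or 3 and 2 lower without Keap1-HKO replicate 1. Of all genes 2.9% to 5.84% were higher and 2.85% to 8.35% lower in these fits. In Nrf2-null mice Duncan's test called 2 genes higher (2.56% of all genes were), and array weights 18 higher and 2 lower (11.7% and 11.9%).

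Without the 3 arrays with pancreas or muscle transcripts, Keap1-HKO mice were represented by replicate 1 alone, assumed to vary like the other groups. Then 17 genes were higher and 3 lower against wild-type mice (median 0.41; all genes 18.6%, 19.9% and 0.12), 16 and 3 against Keap1-KD mice (median 0.40; all genes 20.5%, 20.8% and 0.14), and 10 and 1 in the trend (all genes 14.1% and 15.3%). In a fit with the replicate number as a block, 2 genes were called higher in Keap1-HKO against wild-type mice, against 3.47% of all genes. They were Psmb5, and Psmd5 at an adjusted p of 0.026 by limma. The trend had 4 called higher, Psme1 and Psmg3 with them, against 5.98% of all genes. The block changed no other call. Deviations of 10 of 12 arrays correlated more, on average, with same-numbered arrays of other genotypes than with arrays of another number.

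Counts of genes with all arrays above wild-type arrays were 19 to 25 in Nrf2-null, 7 to 18 in Keap1-KD and 5 to 14 in Keap1-HKO mice with single arrays left out (highest without Nrf2-null replicate 1, Keap1-KD replicate 3 and Keap1-HKO replicate 2, where 18.8%, 11.4% and 23% of all genes were above). Below them were 0 to 3, 0 to 3 and 2 to 7 genes, the 7 (15.2%) against 26.1% of all genes. With the pair left out, 3 and 7 lay below in Nrf2-null and Keap1-HKO mice, against 16% and 26.1% of all genes. After a second quantile normalization or centring, 1 lay below in Keap1-HKO mice, against 12.4% and 12.9% of all genes. With 3 mice per genotype, small differences of single genes can miss the threshold.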
